A study of Mus musculus with 21 samples.

Results

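Syndecans and glypicans are the 2 families of proteoglycans that hold heparan sulfate at the surface of cells. The 8 genes described here were taken by symbol from the 20284 genes of a single-cell table: the 4 syndecans Sdc1, Sdc2, Sdc3 and Sdc4, and the glypicans Gpc1, Gpc3, Gpc4 and Gpc6. All 8 had a row. The other glypicans, Gpc2 and Gpc5, belong to a list of related genes treated further on. The RNA came from back skin of CD1 mouse embryos at embryonic day 15 (E15.0), and the labels name no mutation and no treatment. Live cells were sorted into wells and processed by SORT-seq, a plate method that counts RNA molecules by random tags (unique molecular identifiers, UMIs) at the end of the transcript.

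The wells carry 4 population names, DC0 (149 wells), DC1 (152), DC2 (151) and Fb (1371). DC stands for dermal condensate, the cluster of dermal cells that forms below a budding hair follicle, and Fb for fibroblast. The labels do not define DC0, and the order DC0, DC1, DC2 is taken from the numbers alone. Nor do the labels say how a well received its name. The design text states that stages were found by clustering cells, so the names may rest in part on the genes compared here. All DC wells, of whichever name, are called condensate wells below.

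Heparan sulfate is a long sugar chain that binds many growth factors, WNTs, BMPs, FGFs, hedgehog proteins and chemokines, and so shapes where these signals gather and how well receptors see them. Syndecans cross the membrane and hold on to the cytoskeleton and to adaptor proteins with a short tail. Glypicans are anchored to the outer leaflet of the membrane by a lipid (GPI) and can be cut free. In skin, syndecan-1 is best known from the epidermis and from the mesenchyme that condenses below hair, tooth and other buds.

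Wells with a condensate name had more Sdc1 than fibroblast wells, and less Gpc3, Gpc4 and Gpc6. Over all condensate wells Gpc1 was also higher and Sdc2 lower, but both calls were lost under some alternatives. Sdc3 and Sdc4 did not pass the test. By name, Gpc1 passed against Fb in DC2 wells alone, and there it was higher in only 2 of 7 libraries. Sdc2 was low in DC0 and DC1 wells and higher in DC2 wells. Sdc1 supplied most syndecan UMIs in condensate wells and Gpc3 most glypican UMIs under every population name, and their surroundings in the genome are shown first. Sdc1 lies on chromosome 12, from 8771323 to 8793715 on the plus strand (GENCODE, GRCm38). Gpc3 lies on the X chromosome, from 52272426 to 52613950 on the minus strand, and Gpc4 is its neighbour, from 52053021 to 52165252 on the same strand, with 107.2 kb and 0 protein-coding genes between them. The stretches just before the start of Sdc1 and Gpc3 are printed because these genes carry the largest counts and moved in opposite directions. They come from RefSeq (GRCm38.p6), 5′ to 3′ on the strand of the gene, and capitals mark each GC box, the letters GGGCGG on either strand. The Sdc1 stretch, chr12:8771146-8771322, stops where the gene begins in GENCODE. The Gpc3 stretch is chrX:52613975-52614224.
Sdc1: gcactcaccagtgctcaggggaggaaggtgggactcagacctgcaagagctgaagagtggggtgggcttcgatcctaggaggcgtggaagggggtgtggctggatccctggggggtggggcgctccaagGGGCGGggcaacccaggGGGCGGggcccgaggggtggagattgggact
Gpc3: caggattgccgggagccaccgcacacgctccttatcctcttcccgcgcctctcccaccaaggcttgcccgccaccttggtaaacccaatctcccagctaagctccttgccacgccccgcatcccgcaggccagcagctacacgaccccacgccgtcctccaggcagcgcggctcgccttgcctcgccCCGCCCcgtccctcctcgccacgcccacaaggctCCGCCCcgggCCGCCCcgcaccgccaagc
The printed Sdc1 stretch held 2 GC boxes in 177 bases and the Gpc3 stretch 3 in 250 bases. Promoter sequence was at hand for 5 of the 8 members. In the 250 bases before the RefSeq start, Sdc1, Gpc3 and Sdc3 held 3 GC boxes each, Sdc4 held 4 and Gpc4 held 1. At least 1 GC box occurred in 32.7% of the 32851 RefSeq windows of this length. The E-box CANNTG, which reads the same on both strands, occurred once in the Sdc1 window and in none of the Gpc3, Gpc4, Sdc3 and Sdc4 windows, against 66.2% of all windows. The letters TATAA, on either strand, occurred in the Sdc1 and Sdc4 windows and in 22.8% of all windows. No GC box overlapped either of the other motifs. Base composition was 66.0% G and C for Sdc1, 71.6% for Gpc3 and 68.4% for Gpc4, against a median of 52.4%. These matches are descriptions of letters and not of binding.

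The remaining members lie at chromosome 15, 32920723 to 33034935 (Sdc2), chromosome 4, 130792537 to 130826319 (Sdc3), chromosome 2, 164424247 to 164443887 (Sdc4), chromosome 1, 92831645 to 92860779 (Gpc1) and chromosome 14, 116925315 to 117976544 (Gpc6). Gpc1 overlaps Ankmy1 on the opposite strand, and Gpc3 overlaps the antisense gene A630012P03Rik. Ankmy1 and A630012P03Rik have rows of their own in the table. The sources used here do not state whether the counting used strand, so reads of these pairs may not be separated.

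The 9 libraries held between 1436924 and 6414137 UMIs in their cell wells. Median depth was 12773 UMIs for a DC0 well, 10469 for DC1, 8333 for DC2 and 18509 for Fb. Most condensate wells came from 2 plates without fibroblast wells: library 8 held most DC0 and most DC2 wells, and library 9 held most DC1 wells. The DC2 wells of library 1 stand apart, with 2855 UMIs from 4 wells. Libraries 3, 5, 6 and 7 share a sequencing run by their labels, and libraries 1 and 2 carry other run codes. The labels give no run code for libraries 4, 8 and 9, which are counted below with those outside the shared run although their run is not known. The summed level of 6 fibroblast markers ran from 10991 to 20310 UMIs in every 1e+06 in DC0, 9433 to 15559 in DC1 and 8195 to 24168 in DC2 wells, against 43126 to 53526 in Fb wells. Summed condensate markers were at 939.5 to 3090.1 in DC0, 1614 to 2727 in DC1 and 1401 to 4293 in DC2 wells, against 85.1 to 122.4 in Fb wells, so the names went with their markers. The labels do not state whether libraries came from separate litters or animals, and p-values measure only how far these libraries scatter.

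The first comparison asked how the surface proteoglycans differ between condensate and fibroblast wells. UMIs were summed over all condensate wells and over all fibroblast wells of a library, for libraries 1 to 6, each of which held 10 or more wells of both kinds. A level is given in CPM, a gene's UMIs in every 1e+06 UMIs of the sum. A gene was called where edgeR (quasi-likelihood test, blocked by library) gave an adjusted p under 0.05. Of the 8 members, all passed the filter on low counts, 2 were higher in condensate wells and 4 were lower. Over all 9640 genes tested, 10.4% were higher and 13.2% lower. The median log2 fold change was −0.79 over the 8 members and −0.03 over all genes.

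Sdc1, the syndecan of epithelia and condensing mesenchyme, had 359.3 CPM in the lowest, 427 in the median and 787 in the highest of the 6 condensate sums, against 91.04, 103 and 127 CPM in the Fb sums. Every condensate sum lay above every Fb sum. Mean levels were 491 ± 168 CPM in condensate and 106.9 ± 13.6 CPM in Fb wells (SD, n = 6 libraries each). Sdc1 rose by 2.03 on the log2 scale (SE 0.147, adjusted p = 1.93e-14 in edgeR). It rested on 487 UMIs in 75 condensate wells and 2853 UMIs in 1239 Fb wells. Keratinocytes also express Sdc1. The summed level of 8 keratinocyte markers ran from 0 to 365 CPM in DC0, 38.9 to 798 in DC1 and 28.7 to 838 in DC2, against 45.9 to 487 in Fb sums, with all 8 markers at 1 UMI or more in DC1, DC2 and Fb and 7 of 8 in DC0. Over all wells, 7 of the 8 markers were lower in DC0 than in Fb, 6 were higher in DC1 and 6 were lower in DC2. Most of these DC wells came from libraries 8 and 9, which the Sdc1 test above did not use. Krt5, a keratin of basal keratinocytes, stood at 26.5 CPM in DC0, 183.7 CPM in DC1 and 15.99 CPM in DC2, against 82.7 CPM in Fb wells. Trp63, a defining factor of keratinocytes, stood at 0, 15.05 and 1.71 CPM, against 3.06 CPM in Fb wells. The part of keratinocyte RNA in the Sdc1 difference was not tested.

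Sdc2, a syndecan of fibroblasts and other mesenchymal cells, had 13.999, 57.9 and 87.98 CPM (lowest, median, highest) in condensate sums, against 76.7, 85.7 and 93.4 CPM in Fb sums. It was lower in condensate wells in 5 of 6 libraries, and the groups overlapped through 1 library. Sdc2 fell by 0.87 on the log2 scale (SE 0.247, adjusted p = 0.00751 in edgeR, n = 6). The call was lost when library 6 was left out (−0.62, adjusted p = 0.0819), when wells were thinned to 3000 UMIs (−0.86, adjusted p = 0.371) and in the libraries outside the shared run alone (−0.45, adjusted p = 0.626). Within the shared run the change was −1.16 (adjusted p = 0.00544).

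Sdc3, the syndecan best known from neurons and muscle, had 22.2, 44.8 and 70.4 CPM in condensate sums, against 41.1, 46.0 and 55.4 CPM in Fb sums. It was higher in 3 libraries and lower in 3. Between the groups it differed by −0.19 on the log2 scale (SE 0.266, adjusted p = 0.668 in edgeR), with an approximate 95% interval of −0.71 to 0.33. Sdc4, a component of focal adhesions, had 0, 6.34 and 52.8 CPM in condensate sums, against 12.4, 14.3 and 20.2 CPM in Fb sums. These levels rest on 8 UMIs in condensate wells, and library 2 alone lay above the Fb range. The log2 fold change of −1.06 (SE 0.574, adjusted p = 0.193 in edgeR) has an interval of −2.19 to 0.07, so both a marked fall and no difference lie within it.

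Gpc1, the glypican known to assist FGF and WNT signals, had 18.7, 54.1 and 104 CPM in condensate sums, against 17.7, 24.4 and 30.3 CPM in Fb sums. It was higher in condensate wells in 5 of 6 libraries, by 0.98 (log2, SE 0.321, adjusted p = 0.0210 in edgeR), and the groups overlapped. The call was the least firm of the 6: without library 3 the change was 0.74 (adjusted p = 0.172) and without library 4 also 0.74 (adjusted p = 0.145). It was lost too with DESeq2 (adjusted p = 0.0513), with sums of at least 5 wells (0.81, adjusted p = 0.0510), and both inside (0.64, adjusted p = 0.332) and outside the shared run (1.35, adjusted p = 0.0944).

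Gpc3, whose loss in humans causes an overgrowth syndrome and which restrains hedgehog signalling in mice, had 277, 432 and 492.7 CPM in condensate sums, against 503, 578 and 712 CPM in Fb sums. All condensate sums lay below all Fb sums. Gpc3 fell by 0.70 on the log2 scale (SE 0.126, adjusted p = 3.08e-05 in edgeR, n = 6), with 444 UMIs in condensate and 15629 in Fb wells. Gpc4, a close relative known to act on WNT and BMP signals, fell further. It had 0, 20.5 and 26.3 CPM in condensate sums, against 62.7, 68.5 and 92.7 CPM in Fb sums, with no overlap. Its log2 fold change was −1.87 (SE 0.302, adjusted p = 5.46e-06 in edgeR). Gpc6, a glypican of growing skeletal tissue that helps hedgehog signals, had 0, 12.5 and 29.7 CPM in condensate sums, against 33.2, 42.1 and 58.5 CPM in Fb sums. It too showed no overlap, and its log2 fold change was −1.68 (SE 0.368, adjusted p = 0.000520 in edgeR). That call was lost outside the shared run (−1.36, adjusted p = 0.231). In condensate wells, Gpc4 had 24 UMIs and Gpc6 had 16.

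**Figure D1:**
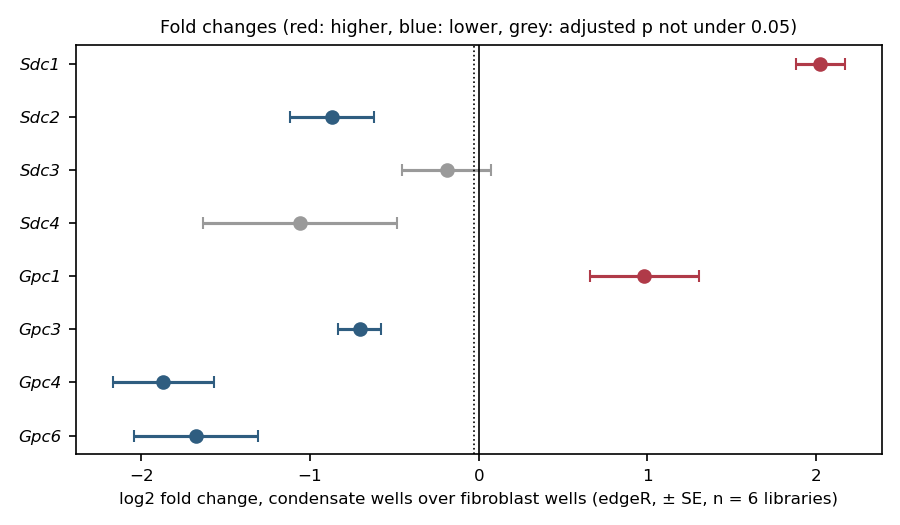
Log2 fold changes of the 8 members between condensate and fibroblast wells, with the SE as bars, from edgeR over 6 libraries; the dotted line marks the median of all 9640 genes. Sdc1 stands far right at 2.03 and Gpc1 at 0.98, Sdc2, Gpc3, Gpc4 and Gpc6 lie left of 0, and Sdc3 and Sdc4, in grey, did not pass.

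Wells named for spike-ins, which should hold no cell, show how much RNA strays between wells. These wells had a median of 431 UMIs of mouse genes. Gpc3 averaged 4.81 UMIs per condensate well and 12.9 per Fb well, against 0.354 per spike-in well. Sdc1 averaged 6.79 per condensate well and 2.36 per Fb well, against 0.104 per spike-in well. In condensate wells, Gpc4, Gpc6 and Sdc4 stood closer to the level of the spike-in wells. Gpc4 averaged 0.296 UMIs per condensate well and 1.56 per Fb well, against 0.0417 per spike-in well. Gpc6 averaged 0.181 UMIs per condensate well and 0.937 per Fb well, against 0.0278 per spike-in well, and Sdc4 averaged 0.210 per condensate well and 0.342 per Fb well, against 0.0347 per spike-in well. The part of stray RNA in the differences was not tested.

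Next the populations were compared one by one, with sums of at least 2 wells in libraries 1 to 8 and all 4 populations in the same model. Its filter left 2069 genes, and of the members it left Sdc1 and Gpc3. The other 6 were fitted without a filter on low counts, among 18809 genes. In that fit the median of all genes lay at −0.52 for DC0, −0.47 for DC1 and −0.55 for DC2 against Fb with TMM scaling, at −0.31, −0.32 and −0.21 with RLE scaling and at 0.49, 0.51 and 0.92 with DESeq2. Fold changes against Fb from it are therefore read against these medians, and called values are also given with TMM factors taken from the 2069 filtered genes, an alternative chosen after seeing the data. Between the DC names the median with TMM scaling was 0.05 for DC1 against DC0, −0.04 for DC2 against DC1 and 0.01 for DC2 against DC0. Of the 8 members in the fit without a filter, 1 was higher and 4 were lower in DC0 than in Fb, 1 and 5 in DC1, and 2 and 4 in DC2. The background over all its genes was 1.70% higher and 6.68% lower in DC0, 2.79% and 6.16% in DC1, and 3.73% and 11.9% in DC2. These shares take in genes with very few UMIs. Over the 2069 filtered genes they were 11.7% and 14.8% in DC0, 16.2% and 16.4% in DC1, and 19.8% and 25.04% in DC2.

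Sdc1 was above Fb under all 3 DC names. Its levels were 123.2, 598 and 1062 CPM in DC0 sums (lowest, median, highest, n = 8), 175, 298 and 979 CPM in DC1 (n = 7) and 0, 309.9 and 622 CPM in DC2 (n = 8), against 91.04, 102.3 and 127 CPM in Fb (n = 7). Every DC1 sum lay above every Fb sum, and DC0 was above Fb in all 7 libraries that held both. The 0 in DC2 is library 1, whose DC2 sum held 2855 UMIs. The log2 fold change against Fb was 2.21 in DC0 (SE 0.284, adjusted p = 1.21e-07), 1.90 in DC1 (SE 0.296, adjusted p = 3.22e-06) and 1.57 in DC2 (SE 0.312, adjusted p = 9.45e-05), all in edgeR. Of the 2069 genes, 11.7% were higher in DC0, 16.2% in DC1 and 19.8% in DC2. Mean levels stood in the order DC0, DC1, DC2, Fb, and medians had DC2 before DC1. The neighbours DC1 and DC0 (−0.32, adjusted p = 0.862) and DC2 and DC1 (−0.32, adjusted p = 0.688) did not differ beyond their spread. DC2 was below DC0 in 7 of 8 libraries, by 0.64 (SE 0.307, adjusted p = 0.152 in edgeR), with an approximate 95% interval of −1.24 to −0.04. In library 8 the 846 UMIs in DC2 and 1040 in DC0 gave a ratio of 0.883 (95% counting interval 0.805 to 0.968). DC1 wells of library 9 had 445 CPM.

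Gpc3 was lower under each DC name by similar amounts. It had 96.6, 431 and 662 CPM in DC0, 96.3, 409 and 895 CPM in DC1 and 175, 449 and 1051 CPM in DC2, against 503, 567 and 712 CPM in Fb. The spread among DC sums was wide and overlapped with Fb. The log2 fold change was −0.67 in DC0 (SE 0.297, adjusted p = 0.0972), −0.68 in DC1 (SE 0.298, adjusted p = 0.0803) and −0.85 in DC2 (SE 0.310, adjusted p = 0.0242) in edgeR. Only the DC2 value passed, where 25.04% of the 2069 genes were lower, against 14.8% in DC0 and 16.4% in DC1. That call was lost with RLE scaling (−0.74, adjusted p = 0.0549), with DESeq2 (−0.64, adjusted p = 0.154), within the shared run (−0.66, adjusted p = 0.172), outside it (−1.16, adjusted p = 0.100) and without library 4, 5, 7 or 8 (adjusted p of 0.0646 to 0.0772). The DC0 value passed without library 7 (−0.82, adjusted p = 0.0479) and the DC1 value without library 2 (−0.79, adjusted p = 0.0453). Without the filter on low counts all 3 passed, at −1.01, −0.97 and −1.28, and with the factors of the filtered genes only DC2 did (−0.65, −0.69 and −0.87, adjusted p = 0.114, 0.0722 and 0.0130). No difference between DC names passed, with −0.01 for DC1 against DC0, −0.17 for DC2 against DC1 and −0.18 for DC2 against DC0. For comparison, the calls over all 2069 genes came to 0.967% higher and 0.193% lower in DC1 than in DC0, 1.16% and 1.30% in DC2 than in DC1, and 8.41% and 9.18% in DC2 than in DC0. Mean levels stood in the order Fb, DC2, DC1, DC0. Library 8 taken alone had 365 UMIs in DC2 and 663 in DC0, a ratio of 0.598 (95% counting interval 0.524 to 0.680), while over the 8 libraries DC2 was higher in 5.

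**Figure D2:**
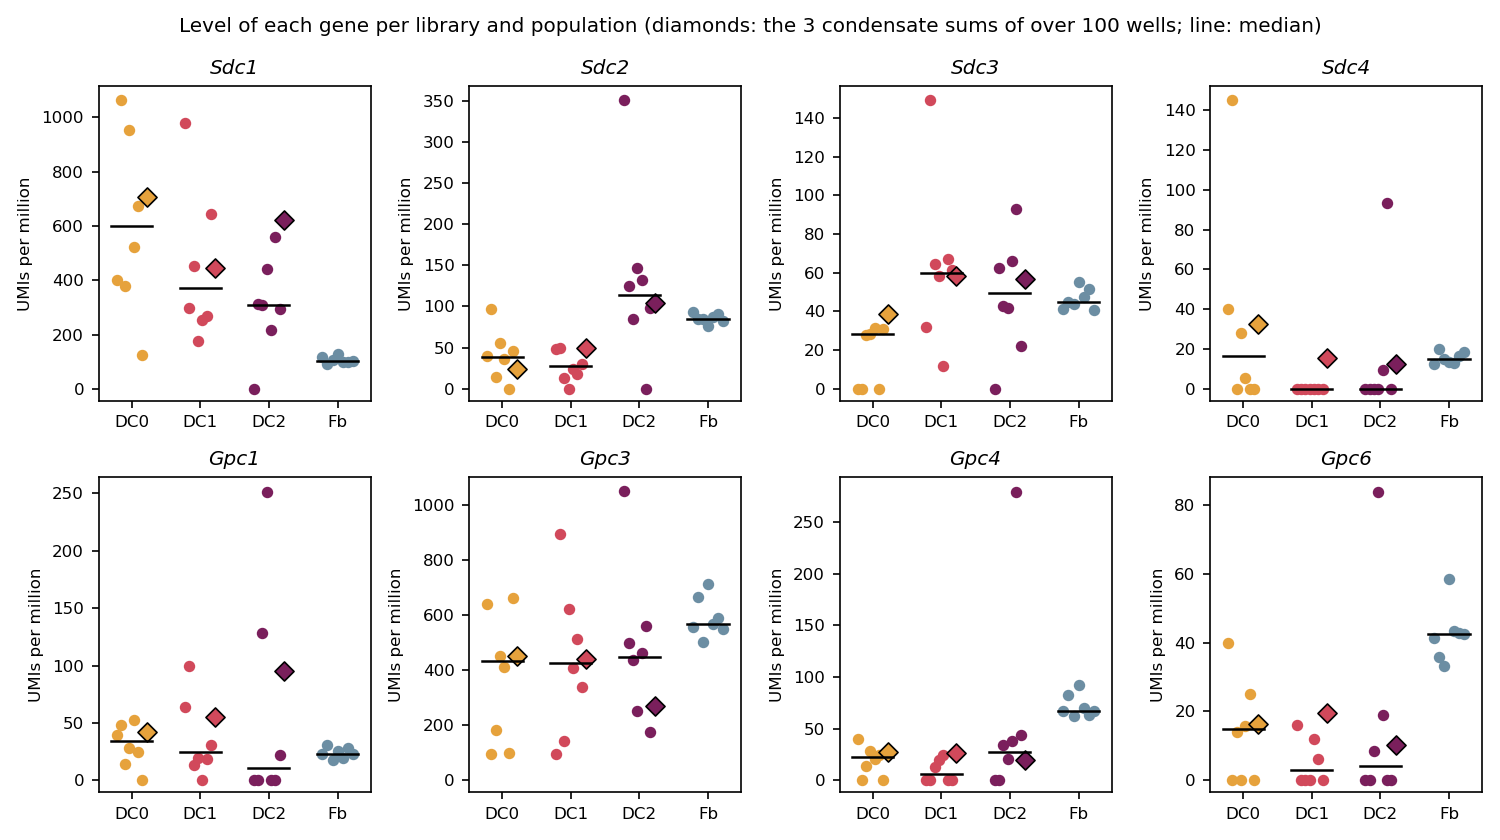
Level of each member in CPM, 1 point per library and population; diamonds are the sums of over 100 wells in libraries 8 and 9, and lines are medians over all points. Fb points lie close together, Sdc1 is raised in all DC columns, Sdc2 is raised in DC2 next to DC0 and DC1, and Gpc4 and Gpc6 lie below Fb in most libraries.

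Sdc2 was the one member whose differences between DC names passed. It had 0, 38.2 and 96.6 CPM in DC0 sums, 0, 24.1 and 49.7 CPM in DC1 and 0, 114 and 350.3 CPM in DC2, against 76.7, 84.4 and 93.4 CPM in Fb. All DC1 sums lay below all Fb sums, whereas DC2 was above Fb in 6 of 7 libraries. DC2 was higher than DC0 in 7 libraries and tied at 0 in library 6. In library 1 the DC2 and DC0 sums each held 1 UMI of Sdc2, and in library 2 each held 2. There the levels differed only through the totals, of 2855 and 25062 UMIs in library 1 and 16003 and 20707 in library 2. The 350.3 CPM in DC2 is that 1 UMI of library 1. The log2 fold change of DC2 over DC0 was 1.70 (SE 0.410, adjusted p = 0.00311 in edgeR without a filter), where 2.07% of all genes were higher and 1.89% lower. It was 1.79 (adjusted p = 0.000816) with the factors of the filtered genes. DC2 over DC1 was 2.15 (SE 0.538, adjusted p = 0.0212), where 0.186% of all genes were higher and 0.420% lower, and 2.31 (adjusted p = 0.00905) with those factors. Over the 2069 filtered genes the shares were 8.41% higher and 9.18% lower for DC2 over DC0, and 1.16% and 1.30% for DC2 over DC1. Both calls were lost within the shared run (adjusted p = 0.240 and 0.205) and outside it (0.289 and 0.871) and after thinning (0.0915 and 1.00). The first was lost without library 8 (1.55, adjusted p = 0.120) and the second without library 3, 4 or 5 (1.92 to 2.12, adjusted p of 0.0774 to 0.0977) and with sums of at least 5 wells (2.43, adjusted p = 0.176). DESeq2 gave 2.37 for the second, with no adjusted p. In library 8 itself, 141 UMIs in DC2 and 36 in DC0 gave a ratio of 4.25 (95% counting interval 2.93 to 6.31). DC1 wells of library 9 had 50.1 CPM.

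Against Fb, Sdc2 was lower by 1.77 in DC0 (SE 0.391, adjusted p = 0.000373) and by 2.22 in DC1 (SE 0.455, adjusted p = 8.09e-05), and by 1.48 and 2.00 with the factors of the filtered genes (adjusted p = 0.00393 and 0.000471). DC2 did not pass (−0.07, adjusted p = 0.962, and 0.32 with those factors). Outside the shared run neither Sdc2 call held (adjusted p = 0.387 and 0.278). The order of levels was DC2, Fb, DC0, DC1, and the neighbours DC2 and Fb, and DC1 and DC0 (−0.45, adjusted p = 1.00), did not differ beyond their spread. Between DC1 and DC0 no member was called without the filter, and of all genes 0.239% were higher and 0.0266% lower.

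Sdc3 had 0, 28.1 and 38.6 CPM in DC0, 12.03, 61.4 and 149 CPM in DC1 and 0, 49.7 and 93.1 CPM in DC2, against 40.5, 44.7 and 55.4 CPM in Fb. In all 7 libraries DC0 lay below Fb, without overlap, and in 6 of 7 DC1 lay above DC0. Neither difference passed without the filter (−1.21, adjusted p = 0.0555, and 1.10, adjusted p = 0.769 in edgeR). After thinning, both DC0 (−2.85, adjusted p = 0.00964) and DC2 (−2.18, adjusted p = 0.0420) passed against Fb. In that thinned fit without a filter, many more genes were called lower than higher in DC0 and in DC2 wells. The factors of the filtered genes were not applied after thinning. How far a shift over all genes enters these Sdc3 values was therefore not tested. By order of median the populations were DC1, DC2, Fb, DC0, with no neighbours called apart.

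Sdc4 was scarce everywhere. It had 0, 16.7 and 145 CPM in DC0 and 0, 0 and 93.1 CPM in DC2, against 12.4, 15.0002 and 20.2 CPM in Fb. In DC1, libraries 1 to 7 held 0 UMIs in 490585, which puts the pooled level at least 2.50-fold lower than in Fb (a floor of 3 counts over the group). Without a filter edgeR called Sdc4 lower in DC1 than in Fb (adjusted p = 0.00155, and 0.00672 with the factors of the filtered genes). That call was lost with DESeq2 (adjusted p = 0.0824), after thinning (0.106), outside the shared run (0.426), with sums of at least 5 wells (0.122) and with library 9 added and no library block (0.242). Library 9 held 22 UMIs in its DC1 wells, or 15.3 CPM, and the pooled Fb level was 15.3 CPM. With 2 UMIs in DC2 over libraries 1 to 7, Fb exceeded DC2 by a ratio of 2.99 (95% counting interval 0.823 to 24.8). The edgeR value for DC2 against Fb passed without a filter (adjusted p = 0.0289), and the call was lost in 12 of 18 alternatives. Those were the factors of the filtered genes (−1.54, adjusted p = 0.148), RLE scaling (0.191), DESeq2 (0.521), no library block (0.178), thinning (0.277), the libraries within (0.425) and outside the shared run (0.890), library 9 added (0.220) and leaving out library 3, 5, 7 or 8 (0.0559 to 0.153). Library 8 held 17 UMIs in DC2 and 48 in DC0, a ratio of 0.384 (95% counting interval 0.207 to 0.681). Over all 8 libraries DC2 against DC0 did not pass (−1.49, adjusted p = 0.228 in edgeR). Mean levels stood in the order DC0, Fb, DC2, DC1, and DC0 and Fb did not differ beyond their spread (adjusted p = 0.839).

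Gpc1 had 0, 34.0 and 52.3 CPM in DC0, 0, 19.4 and 99.4 CPM in DC1 and 0, 10.96 and 251 CPM in DC2, against 17.7, 23.04 and 30.3 CPM in Fb. DC2 sums were scattered: 4 of 8 were at 0, while libraries 3, 4 and 8 had 128, 251 and 95.6 CPM. Against Fb, DC2 passed (1.16, SE 0.399, adjusted p = 0.0290, and 1.55 with the factors of the filtered genes, adjusted p = 0.00479), although it was higher in only 2 of 7 libraries, and without library 3 or 4 the change was 0.72 (adjusted p = 0.373 and 0.337). It was lost with DESeq2, after thinning and inside and outside the shared run too. DC0 (0.15) and DC1 (−0.27) did not pass against Fb, nor did DC2 against DC0 (1.01, SE 0.439, adjusted p = 0.238), which passed without library 5 (1.61, adjusted p = 0.0294). Library 8 alone held 130 UMIs in DC2 and 62 in DC0, a ratio of 2.28 (95% counting interval 1.67 to 3.13). DC1 wells of library 9 had 54.98 CPM. Medians ran in the order DC0, Fb, DC1, DC2, while the mean was highest in DC2 (62.1 CPM) and lowest in Fb (24.0 CPM). No DC names were called apart.

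Gpc4 and Gpc6 were low under all 3 DC names. Gpc4 had 0, 22.9 and 39.9 CPM in DC0, 0, 0 and 24.1 CPM in DC1 and 0, 27.5 and 279.4 CPM in DC2, against 62.7, 67.6 and 92.7 CPM in Fb. The 279.4 CPM is library 6, where 3 of 10736 UMIs were Gpc4. DC0 and DC1 did not overlap with Fb. Against Fb the log2 fold change was −1.87 in DC0 (SE 0.436, adjusted p = 0.000849), −3.42 in DC1 (SE 0.592, adjusted p = 1.30e-06) and −1.61 in DC2 (SE 0.422, adjusted p = 0.00214), and −1.57, −3.19 and −1.26 with the factors of the filtered genes, all of them called. The DC1 value rests on 4 UMIs. DC2 was lost without library 8 (−1.22, adjusted p = 0.0593), with RLE scaling (−1.17, adjusted p = 0.0553), with DESeq2 (−0.94, adjusted p = 0.279) and within the shared run (−0.86, adjusted p = 0.390). DC0 was lost with sums of at least 5 wells (−1.58, adjusted p = 0.0887) and outside the shared run (−2.41, adjusted p = 0.143).

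Gpc6 had 0, 14.9 and 39.9 CPM in DC0, 0, 0 and 16.0 CPM in DC1 and 0, 4.27 and 83.8 CPM in DC2, against 33.2, 42.6 and 58.5 CPM in Fb. DC1 lay below Fb without overlap. Against Fb Gpc6 fell by 1.735 (log2, SE 0.496, adjusted p = 0.0104) in DC0 and by 2.01 (SE 0.513, adjusted p = 0.00154) in DC2, and with the factors of the filtered genes it fell by 1.45 (adjusted p = 0.0572) and by 1.65 (adjusted p = 0.0176). In DC1, 3 UMIs were left over libraries 1 to 7, and Fb exceeded DC1 by a ratio of 6.84 (95% counting interval 2.33 to 33.2), a difference edgeR called (adjusted p = 0.000128, and 0.000750 with the factors of the filtered genes). The DC0 call was lost in 8 of 18 alternatives, among them RLE scaling, DESeq2, thinning, sums of at least 5 wells and leaving out library 7. The DC2 call was lost with DESeq2 (adjusted p = 0.127) and with sums of at least 5 wells (adjusted p = 0.122). Neither held outside the shared run, and in DC1 the call was lost there as well (adjusted p = 0.210). Between DC names neither gene passed. For both, the order of means was Fb, DC2, DC0, DC1. DC1 wells of library 9 had 26.4 CPM of Gpc4 and 19.5 CPM of Gpc6.

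The make-up of each family shows the same values as shares. UMIs count molecules by their ends and are not scaled by length, and capture may differ from gene to gene, so shares are compared between populations and not between genes. Sdc1 made up 87.9% of the syndecan UMIs in DC0 wells (95% exact binomial interval 86.1 to 89.6%), 79.5% in DC1 (76.9 to 81.9%) and 76.4% in DC2 (73.9 to 78.7%), against 41.6% in Fb wells (40.5 to 42.7%). Sdc2 made up 3.61% in DC0, 7.88% in DC1 and 14.6% in DC2, against 34.1% in Fb wells. In single libraries with at least 20 syndecan UMIs the Sdc1 share was 81.5% or more in DC0, 75.9% or more in DC1 and 51.1% or more in DC2. It was 46.5% or less in Fb, so DC and Fb libraries above this limit did not overlap. The limit kept 6 of 8 libraries in DC0, 6 of 8 in DC1, 5 of 8 in DC2 and all 7 in Fb. Among those left out, the DC2 sum of library 1 held 0 UMIs of Sdc1 and 1 of Sdc2. Gpc3 made up 84.3% of the UMIs of the 4 glypicans in DC0, 83.5% in DC1 and 69.6% in DC2, against 81.0% in Fb. Gpc1 made up 7.76% in DC0, 9.15% in DC1 and 21.7% in DC2, against 3.26% in Fb, but in single DC2 libraries its share ran from 0 to 41.4%. Gpc4 made up 4.94%, 4.23% and 5.87% in the 3 DC names and 9.82% in Fb. As a family, the syndecans averaged 692.8 ± 358.1 CPM in DC0 and 537 ± 166 CPM in DC2 (SD, n = 8 libraries each), against 254 ± 11.8 CPM in Fb (n = 7). The 4 glypicans averaged 438 ± 230 CPM in DC0 and 594.5 ± 252.9 CPM in DC2, against 731 ± 91.7 CPM in Fb. Intervals and floors cover counting error only.

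**Figure D3:**
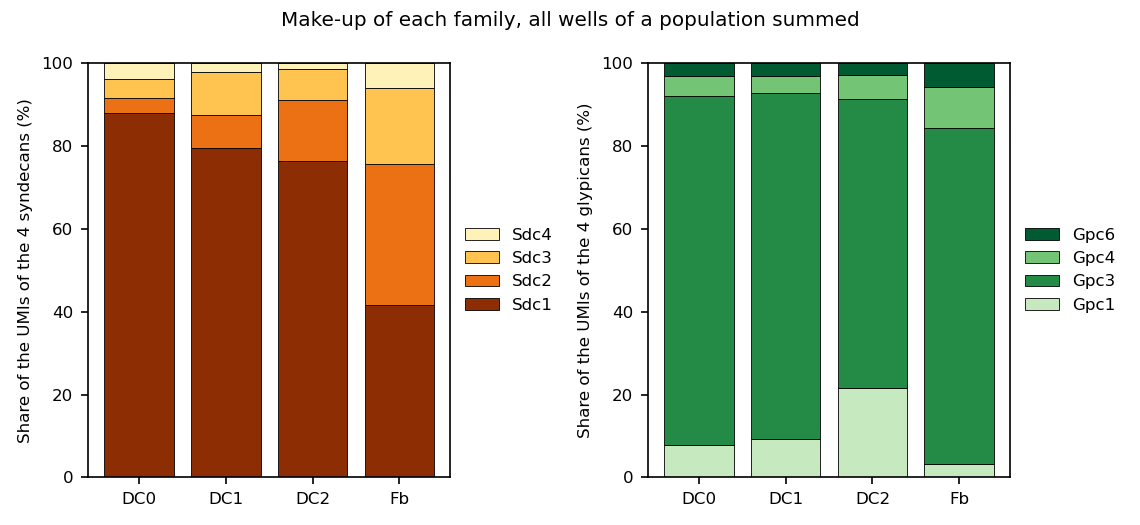
Share of each member in the UMIs of the 4 syndecans (left) and of the 4 glypicans (right), in percent, for DC0, DC1, DC2 and Fb wells summed. Sdc1 takes 76.4% to 87.9% of the syndecan bars under the DC names, against 41.6% in Fb, and Gpc3 takes the largest piece of every glypican bar.

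Single wells were compared after thinning each to 3000 UMIs, which left 1155 Fb wells and fewer wells of each DC name, and left out 327 shallower wells. A UMI of Sdc1 was then seen in 77.4% of DC0 wells (exact binomial interval 68.7 to 84.7%), 66.9% of DC1 and 74.7% of DC2, against 25.5% of Fb wells (22.96 to 28.1%). Unthinned, the shares were 78.5%, 82.9% and 62.9% under the DC names and 63.8% in Fb wells. Gpc3 was seen in 59.1% of DC0, 60.4% of DC1 and 52.9% of DC2 wells, against 73.9% of Fb wells. Unthinned these were 78.5%, 82.9% and 55.6%, against 88.2%. In spike-in wells, at a median of 431 UMIs, 6.94% had a UMI of Sdc1 and 27.1% of Gpc3. The other members were seen in few wells at this depth. Sdc2 was seen in 4.35% of DC0, 11.5% of DC1 and 20.7% of DC2 wells, against 23.03% of Fb wells, and Gpc1 in 6.96%, 15.8% and 24.1%, against 8.92%. Gpc4 was seen in 9.57%, 10.1% and 4.598%, against 18.1%, and Gpc6 in 5.22%, 5.04% and 2.30%, against 10.4%. Sdc3 was seen in 5.22%, 20.1% and 11.5%, against 12.4%, and Sdc4 in 6.09%, 2.88% and 6.90%, against 5.19%. Thinned shares of Gpc1 and of Sdc2 were lowest in DC0 and highest in DC2 among the DC names. Unthinned, Gpc1 was seen in 32.2% of DC0, 38.8% of DC1 and 37.1% of DC2 wells, against 33.0% of Fb wells, so DC2 was not highest. For Sdc2 the unthinned shares were 25.5%, 34.2% and 37.1%, against 60.8%. The wells behind these shares come for the most part from 1 library per DC name.

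**Figure D4:**
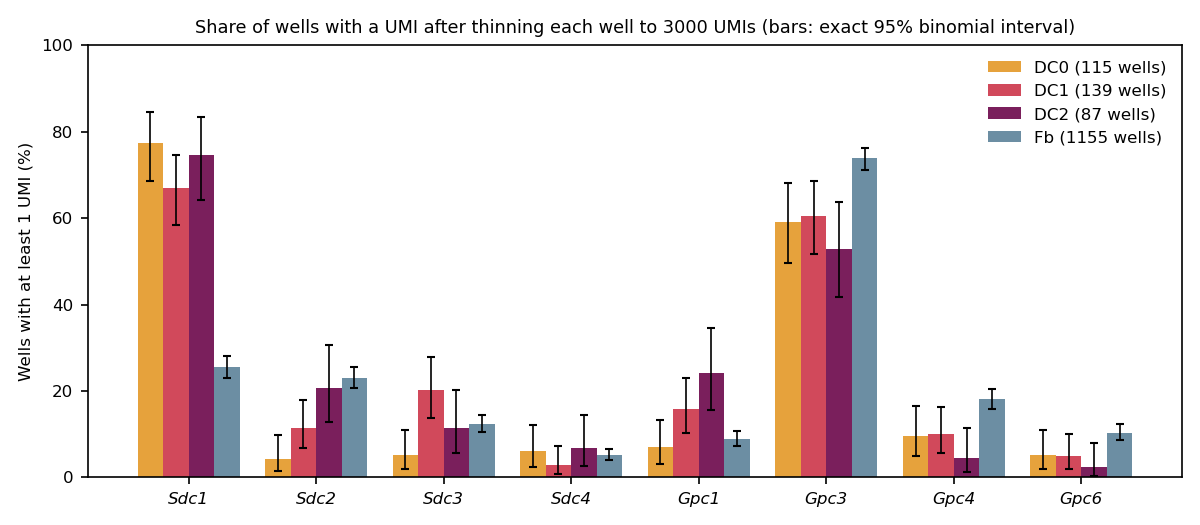
Percent of wells with at least 1 UMI of each member, with every well thinned to 3000 UMIs; bars for DC0, DC1, DC2 and Fb stand side by side, with exact 95% binomial intervals over wells. Sdc1 bars of the DC names exceed that of Fb, and those of Gpc3, Gpc4 and Gpc6 lie below it.

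Most wells held more than 1 member. After thinning, the median well of every population showed 2 of the 8, and 4.35% of DC0, 3.597% of DC1, 3.45% of DC2 and 7.79% of Fb wells showed none. No syndecan was seen in 23 of 115 DC0 wells, 24.5% of DC1 and 17.2% of DC2 wells, against 47.3% of Fb wells, and no glypican in 33.0%, 25.9% and 32.2%, against 18.0%. Sdc1 and Gpc3 were seen together in 44.3% of DC0, 37.4% of DC1 and 35.6% of DC2 wells, against 17.7% of Fb wells. The product of the separate shares gave 45.8%, 40.4% and 39.5%, and 18.8% for Fb. Wells with Sdc1 had Gpc3 in 57.3% of DC0, 55.9% of DC1 and 47.7% of DC2 wells, against 69.7% of Fb wells. Wells without Sdc1 had it in 65.4%, 69.6% and 68.2%, against 75.3%.

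The genes whose levels most resembled those of Sdc1 over the 30 sums of libraries 1 to 8 were the collagen Col7a1 (Pearson r = 0.957), the kinase subunit Pik3r1 (0.947) and the signal Bmp4 (0.939), of 2067 genes ranked after centring within libraries. Those nearest to Gpc3 were the chaperone Dnajc3 (0.813), the membrane linker Rdx (0.795) and Sh3bgrl3 (0.756). Sdc1 and Gpc3 had r = −0.558. The sums share libraries and the contrast between DC and Fb wells, and these values are descriptions.

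The rest of the heparan sulfate machinery was followed with 6 lists of genes, again between condensate and Fb wells over libraries 1 to 6. Each list's count stands beside the 10.4% higher and 13.2% lower over all 9640 genes, and its median beside −0.03. Among enzymes that start and lengthen the chain, 8 of 11 genes were tested, 2 were higher and 0 lower in condensate wells (edgeR), with a median log2 fold change of −0.20. Xylt2, which adds the xylose that starts the chain, averaged 60.8 ± 29.2 CPM in condensate and 23.7 ± 3.09 CPM in Fb wells (SD, n = 6 each) and rose by 1.26 (SE 0.284, adjusted p = 0.000727). Extl3, which adds a first sugar specific to heparan sulfate, rose by 0.93 (adjusted p = 0.000559). The polymerase genes Ext1 (−0.60, adjusted p = 0.0604) and Ext2 (−0.50, adjusted p = 0.127) did not pass.

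Of 16 enzymes that modify the chain 9 were tested, 4 were higher and 1 was lower, and their median was 0.64. Hs3st6, a 3-O-sulfotransferase, averaged 145 ± 59.6 CPM in condensate and 4.22 ± 0.894 CPM in Fb wells, without overlap, and rose by 4.90 (SE 0.307, adjusted p = 2.55e-16 in edgeR). Hs3st3b1, another enzyme of that kind, averaged 168 ± 88.2 CPM in condensate and 11.5 ± 3.71 CPM in Fb wells and rose by 3.60 (SE 0.258, adjusted p = 1.32e-14). Ndst1, which places N-sulfate groups, rose by 1.38 (SE 0.176) to 192.3 ± 64.1 CPM in condensate wells, against 70.4 ± 15.6 CPM in Fb wells. Hs6st1, a 6-O-sulfotransferase, rose by 0.64 (adjusted p = 0.0208). Hs6st2, of the same family, fell by 3.35 (SE 0.515, adjusted p = 2.21e-06) to 8.03 ± 9.48 CPM in condensate wells, against 44.5 ± 6.81 CPM in Fb wells.

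Among 9 genes for editing and release, 6 were tested, 3 were higher and 1 lower, with a median of 0.06. Sulf2, which removes 6-O-sulfate groups outside the cell, fell by 1.65 (SE 0.182, adjusted p = 1.54e-09 in edgeR) to 121 ± 69.6 CPM in condensate wells, against 372 ± 87.99 CPM in Fb wells. Sulf1, its relative, did not pass (−0.56, adjusted p = 0.103). Notum, a secreted enzyme that removes the lipid from WNT proteins, rose by 1.97 (SE 0.381, adjusted p = 9.25e-05) to 57.7 ± 40.2 CPM, against 11.1 ± 2.98 CPM in Fb wells. The sheddases Adam10 (0.56) and Mmp14 (0.51), which can cleave syndecans, rose as well (adjusted p = 0.0150 and 0.00595).

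Of 11 other proteoglycans and part-time carriers of heparan sulfate, 7 were tested, 3 were higher and 3 lower, with a median of −0.07. Gpc2, the glypican best known from the developing nervous system, averaged 67.96 ± 18.8 CPM in condensate and 9.20 ± 1.25 CPM in Fb wells, without overlap, and rose by 2.77 (SE 0.320, adjusted p = 4.97e-09 in edgeR). That is a larger fold change than that of any of the 4 glypicans among the members, though no test compared them. Gpc5 had 1 UMI in all Fb wells and 0 in condensate wells. Cd44, whose splice forms can carry heparan sulfate, rose by 1.54 (SE 0.126) to 732 ± 137.05 CPM, against 237.7 ± 34.1 CPM in Fb wells. Agrn, the basement membrane proteoglycan agrin, rose by 0.73 (SE 0.179, adjusted p = 0.00178). It was also higher in DC2 than in DC0 wells, by 1.72 (SE 0.287, adjusted p = 4.46e-05 in edgeR). Hspg2, which encodes perlecan, fell by 1.29 (SE 0.370, adjusted p = 0.00811), and Nrp1, a coreceptor of semaphorins and VEGF, fell by 1.22 (SE 0.138, adjusted p = 2.57e-09). Spock3 had 2 UMIs in condensate wells and 254 in Fb wells, a ratio of Fb to condensate levels of 5.39 (95% counting interval 1.48 to 44.7).

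Of 9 genes for proteins that bind syndecan tails, 8 were tested, 0 were higher and 1 was lower, with a median of 0.06. Sdcbp, which encodes syntenin, did not pass (0.42, adjusted p = 0.0727). Prkca, a protein kinase C that syndecan-4 can recruit, fell by 1.35 (SE 0.388, adjusted p = 0.00830).

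Of 17 signals that bind heparin, 15 were tested, 4 were higher and 7 lower, with a median of −0.59, which stays the same when the 2 genes at 0 UMIs in condensate wells are set at their bounds. Tgfb2 (497 UMIs in Fb wells) was at least 7.03-fold lower in condensate wells and Fgf7 (463 UMIs) at least 6.55-fold lower, with a floor of 3 counts over the group. The pleiotrophin gene Ptn fell by 4.24 (SE 0.359, adjusted p = 1.67e-12 in edgeR) to 8.79 ± 13.4 CPM, against 135 ± 53.8 CPM in Fb wells. Fgf18 had 1 UMI in condensate and 387 in Fb wells, a ratio of Fb to condensate levels of 16.4 (95% counting interval 2.93 to 650.2). The 4 higher genes were Bmp4, Bmp7, Fgf10 and Vegfa, and of these Bmp4 and Fgf10 also stand among the condensate markers. Cxcl12, a chemokine held by heparan sulfate, fell by 4.14 (SE 0.291), and between DC names it was lower in DC2 than in DC0 wells, by 2.93 (SE 0.677, adjusted p = 0.00234). Wnt5a did not pass between condensate and Fb wells (0.23, adjusted p = 0.306), but it was higher in DC2 than in DC1 wells (1.38, SE 0.368, adjusted p = 0.0379) and than in DC0 wells (0.89, SE 0.309, adjusted p = 0.0423).

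**Figure D5:**
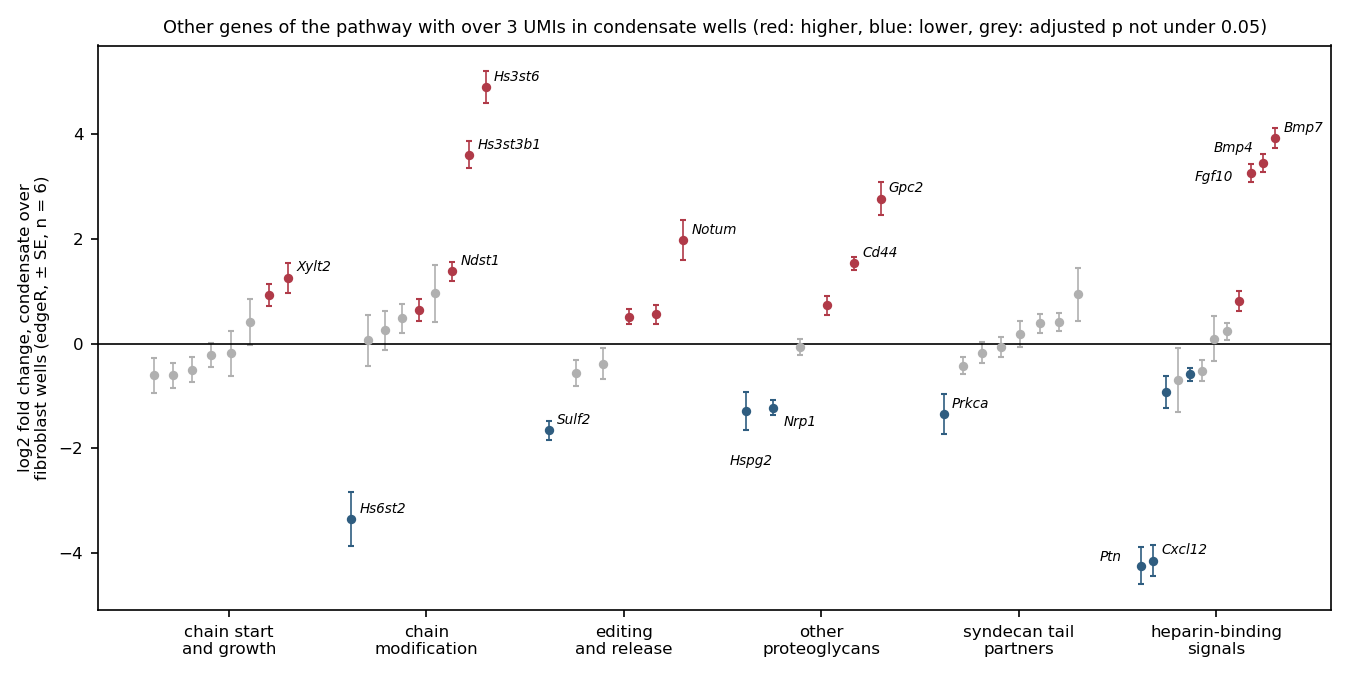
Log2 fold changes between condensate and fibroblast wells for the tested genes of 6 lists with more than 3 UMIs in condensate wells, with the SE as bars (edgeR, 6 libraries). Names are given for called genes that changed by 1 or more; Hs3st6 and Hs3st3b1 stand highest among the enzymes, and Hs6st2 lowest.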

How the data were processed

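Cells of 9 SORT-seq libraries were analysed; 12 bulk samples of the series were not analysed here. Per the submitters' processing notes the build was mm10, and the tools listed, without their roles, were BWA 0.6.2-r126, Cufflinks 2.1.1, TopHat2 2.0.3 and Bowtie2. The authors deposited 1 table of expected counts (estimated UMIs per gene and well): all 7480233 values above 0 followed, within 0.005, the correction for UMI collisions in a space of 4096 tags. Rounding to whole numbers altered 13.5% of the values, which were then summed over the wells of a population and library. Populations came from well-name prefixes.

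Sums were tested with edgeR 4.0.16 (R 4.3.3, limma 3.58.1): TMM scaling, filterByExpr, quasi-likelihood test, a block for each library, and p-values adjusted by Benjamini-Hochberg over all genes tested at 0.05. DESeq2 1.42.0 was an alternative. Libraries 1 to 8 each hold at least 2 populations on 1 plate, so the library number pairs their sums; library 9 holds only DC1 cells and pairs nothing. Approximate 95% intervals of fold changes were taken from the SE under a normal distribution. Descriptions used Python 3.11.15, numpy 2.4.6, pandas 2.3.3 and scipy 1.17.1. The fits of filtered genes were checked on simulated data, and the fit without a filter was not.

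The members and gene lists were chosen with earlier results of these data known. From each list the rule named at most 5 genes with a log2 fold change of at least 1 and any gene called between DC names, and for likeness the 3 highest correlations. Extl3, Ext1, Ext2, Hs6st1, Sulf1, Adam10, Mmp14, Agrn between condensate and Fb wells, Sdcbp, Bmp4, Bmp7, Fgf10, Vegfa and Gpc5 were named outside it, after their values were seen. Alternatives were other scalings, tests and filters, thinning, libraries inside or outside 1 sequencing run (the labels give no run for libraries 4, 8 and 9), larger sums, library 9, and leaving out each library.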

Additional observations from a re-analysis of the deposited data

Results flagged for a closer look

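Of 40 groups of 4 to 10 libraries, 10 had 1 library far from the others. The groups overlap, since the condensate sums hold the DC sums. Some of the levels rest on very few UMIs, such as 1 UMI of Sdc2 in the DC2 wells of library 1. No rate by chance is therefore given. Sdc4 had 145 CPM in the DC0 wells of library 2 and 52.8 CPM over all its condensate wells. Sdc4 also stood apart in the DC2 wells of library 6 (93.1 CPM) and in the DC1 wells of library 9 (15.3 CPM), where the other DC1 libraries were at 0. In the DC2 wells of library 1, which held 2855 UMIs, Sdc2 reached 350.3 CPM and Gpc3 reached 1051 CPM. Gpc4 reached 279.4 CPM in the DC2 wells of library 6. Gpc6 reached 83.8 CPM in the DC2 wells and 58.5 CPM in the Fb wells of library 4, and Sdc3 reached 149 CPM in the DC1 wells of library 2.

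Members were also counted in the wells named for spike-ins, which no comparison used and which should hold no cell. They held 51 UMIs of Gpc3, 15 of Sdc1, 6 of Gpc4, 5 of Sdc4, 5 of Gpc1, 4 of Sdc2 and 4 of Gpc6, each above the limit that a count of 0 allows.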

How the results depend on the processing

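Depth limits Sdc4, Gpc4 and Gpc6 in condensate wells. Over alternatives other than leaving out a library, 54 of the members' values lost a call, 4 gained one, 44 changed sign and the others kept their direction and side of the threshold. Leaving out 1 library kept 398, lost 19, gained 3 and turned 12. Sdc1 kept its calls against Fb under every alternative run, and so did Gpc3 and Gpc4 for all condensate wells. The cause of a change was not tested, except that smaller sets hold fewer libraries, wells or UMIs.

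Without the replicate block on the library, Sdc4 in DC0 against Fb was 0.50 and Gpc3 in DC1 against DC0 was 0.046. The call of Sdc4 in DC2 against Fb was lost (−0.87), and 1.79% of genes were higher in DC2 than in DC1, against 1.16% with the block. No other call of a member changed without it.

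Gpc3 in DC1 against DC0, at −0.01, was 0.011 with RLE scaling, 0.091 with DESeq2, 0.035 without the filter, 0.13 outside the shared run, 0.045 with sums of at least 5 wells and 0.074 with library 9. Gpc3 in DC2 against DC1 was 0.076 within the shared run, and in DC2 against DC0 it was 0.056 with DESeq2 and 0.069 within the shared run. RLE scaling gave 0.0040 for Gpc1 and 0.16 for Sdc3 in DC1 against Fb, and 0.42 for Sdc2 in DC2 against Fb. DESeq2 gave 0.041, 0.17 and 0.42 for these, and 0.15 for Gpc6 in DC2 against DC0. Factors from the filtered genes, chosen after seeing the data, gave 0.12 for Sdc3 in DC1 and 0.32 for Sdc2 in DC2 against Fb. Thinning gave −0.88 for Gpc1 in DC0 against Fb. It gave 0.51 for Gpc1, 0.043 for Gpc4 and 1.37 for Sdc2 in DC1 against DC0, and −1.43 for Gpc4 in DC2 against DC1. In DC2 against DC0 it gave −1.39 for Gpc4 and 0.10 for Sdc4. Within the shared run the Sdc4 value there was 1.07. Outside the shared run Sdc4 was 0.14 in condensate and 1.11 in DC0 against Fb, Gpc1 was 0.61 in DC1 against Fb and 0.31 in DC1 against DC0, Sdc2 was 0.34 in DC2 against Fb and Gpc4 was −0.67 in DC2 against DC0. Sums of at least 5 wells gave 0.12 for Sdc2 in DC2 against Fb and −0.25 for Gpc4 in DC2 against DC0. With library 9 added and no replicate block, Sdc4 was 0.47 in DC0, Gpc1 was 0.57 and Sdc3 0.064 in DC1, and Sdc2 was 0.012 in DC2, all against Fb. In DC1 against DC0 Gpc1 was 0.11 and Sdc2 was 0.38, and in DC2 against DC1 Gpc6 was −0.28 and Sdc4 was −0.020.

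Leaving out 1 library gave −0.25 to 0.27 for Gpc3 in DC1 against DC0, −0.47 to 0.10 for Gpc3 and −0.80 to 0.38 for Gpc6 in DC2 against DC0, and −0.88 to 0.20 for Gpc1 in DC1 against DC0. Against Fb it gave −0.23 to 0.40 for Gpc1 in DC0, −0.29 to 0.11 for Sdc3 in DC1 and −0.16 to 0.072 for Sdc2 in DC2.

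The share of genes called is given as the percent of genes tested under each setting that were higher and lower. Between populations, all shares but those without the filter come from the fit of filtered genes, which held far fewer genes after thinning. They are no background for Sdc2, Sdc3, Sdc4, Gpc1, Gpc4 and Gpc6, whose values come from the fit without a filter. In that fit, more genes were lower than higher under each DC name against Fb, both after thinning and outside the shared run. For condensate against Fb these were 10.4% and 13.2% in the fit reported, 5.08% higher without the filter on low counts, 5.76% and 7.70% after thinning and 3.92% and 6.96% outside the shared run. For DC0 against Fb these were 11.7% and 14.8% in the fit reported, 1.70% and 6.68% without the filter on low counts, 14.5% and 11.3% after thinning, 8.16% and 8.90% outside the shared run, 6.86% and 9.30% within the shared run and 3.80% and 5.08% with sums of at least 5 wells. For DC1 against Fb these were 16.2% and 16.4% in the fit reported, 2.79% and 6.16% without the filter on low counts, 16.7% and 12.8% after thinning, 9.48% and 7.58% outside the shared run, 10.3% and 10.9% within the shared run and 6.37% and 7.25% with sums of at least 5 wells. For DC2 against Fb these were 19.8% and 25.04% in the fit reported, 3.73% and 11.9% without the filter on low counts, 21.6% and 21.3% after thinning, 11.1% and 11.7% outside the shared run, 16.003% lower within the shared run and 10.3% and 13.4% with sums of at least 5 wells. For DC1 against DC0 these were 0.967% and 0.193% in the fit reported, 0.239% and 0.0266% without the filter on low counts, 1.77% and 0.709% after thinning, 0.247% and 0% outside the shared run, 0.0394% and 0.0394% within the shared run, 0.0384% and 0% with sums of at least 5 wells and 2.04% and 0.695% with library 9 added and no replicate block. For DC2 against DC0 these were 8.41% and 9.18% in the fit reported, 2.07% and 1.89% without the filter on low counts, 13.1% and 8.51% after thinning, 2.56% and 1.40% outside the shared run, 3.35% and 2.56% within the shared run and 4.68% and 4.99% with sums of at least 5 wells. For DC2 against DC1 these were 1.16% and 1.30% in the fit reported, 0.186% and 0.420% without the filter on low counts, 0.355% and 1.77% after thinning, 0% and 0% outside the shared run, 0.434% and 0.197% within the shared run, 0.0192% and 0.0959% with sums of at least 5 wells, 2.08% higher with DESeq2 and 0.773% lower with RLE scaling. Where edgeR called 0 genes lower in DC1 than in DC0, the share at an unadjusted p under 0.05, in either direction, was 8.82% outside the shared run, 5.26% with sums of at least 5 wells and 8.77% without replicate 5, and it was 8.16% for DC2 against DC1 outside the shared run. Leaving out 1 library gave 8.01 to 10.3% higher and 11.1 to 12.7% lower for condensate against Fb, 9.75 to 12.3% higher and 11.99 to 14.8% lower for DC0 against Fb, 13.9 to 16.6% higher and 13.3 to 16.8% lower for DC1 against Fb, 17.1 to 22.1% higher and 18.96 to 23.3% lower for DC2 against Fb. Between DC names it gave 0.764 to 1.15% higher and 0 to 0.386% lower for DC1 against DC0, 5.57 to 8.56% higher and 5.46 to 9.48% lower for DC2 against DC0, 0.475 to 1.22% higher and 0.475 to 1.38% lower for DC2 against DC1.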
